A study of Labroides dimidiatus with 18 samples.

Results

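The 60 gene models described here are a set of weakly detected Labroides dimidiatus transcripts whose pooled counts were higher in fish from high-density sites than in fish from low-density sites. They were picked from 28134 gene models, of which 2248 had a mean level of 30 to under 100 counts per 1000000 gene counts (CPM) over 17 fish, and 1983 of those had at least 1 count in 6 or more of the 8 high-density fish. Counts were pooled over the 8 high-density and the 9 low-density fish, and the 60 candidates with the highest ratio of pooled CPM, with 5 CPM added to both values, became the members. The density difference therefore chose the members. It is described and not tested.

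Libraries came from a forebrain slice of 300 µm from female bluestreak cleaner wrasse, which live by eating parasites off other reef fish. Per the labels, the high-density fish were from Clam Gardens (n = 3) and The Crest (n = 5), and the low-density fish were from Osprey, written Osprey collection there (n = 7), and Watson's Bay (n = 3, of which fish 19, with 3868 gene counts, took no part in the choice). No age, genotype or drug is named, whole heads stood in RNAlater for 3 hours on average, and capture to death took 6 to 28 minutes. The labels do not say what the density counts, a fish of one density is never from a site of the other, and so density cannot be told apart from these particular sites.

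The slice held pallial areas Dl and Dm, regarded as the fish counterparts of the hippocampus and the basolateral amygdala, with parts of the septum and striatum. These areas are known for roles in spatial memory, emotional learning and social behaviour. 3' tag sequencing reads transcripts near their poly(A) end, so counts do not scale with transcript length, and a rare transcript yields a handful of reads per animal. No gene name or position accompanies the identifiers, so the function of the members and the cell types in the slice could not be checked, and no sequence is shown. In a bulk slice, fewer cells of a type and less RNA per cell cannot be told apart.

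Gene counts per fish ran from 26092 to 88153 in the 17 fish, so 1 count stood for 38.3 CPM in the shallowest library (Clam Gardens 9) and 11.3 CPM in the deepest (The Crest 11). Gene models held 6.44% ± 0.585 of all records (SD, n = 17). The high-density libraries were deeper on average, at 54971 ± 24747 gene counts against 43452 ± 11064 (SD, n = 8 and 9). This greater depth was that of The Crest, with a mean of 66771 (n = 5). Clam Gardens had the lowest site mean, 35303 (n = 3), beside 56047 at Watson's Bay (n = 2) and 39853 at Osprey (n = 7). Pooling by counts gave The Crest 11 alone 20.0% of the high-density counts, and the 5 Crest fish together weighed more than the 3 from Clam Gardens. Intervals below cover counting error only.

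The members were divided into 2 unequal groups at a ratio of 4, a limit drawn after the values were seen. A group of 12 had ratios from 4.06 to 41.5 and a median of 4 counts (range 0 to 11) over all 9 low-density fish. The other 48 had ratios from 2.02 to 3.20, with a median of 29 counts in high-density and 9 counts (range 5 to 24) in low-density fish. The low-density counts of the 2 groups thus overlapped. Among all 1983 candidates the median ratio was 0.980, 62 (3.13%) lay above 2 and 34 lay below 0.5. The requirement of 6 detected high-density fish does not treat the densities alike, so these tails are not a symmetric pair. At the limit of the list, Ldim_g25984 (25 counts against 10) and Ldim_g22981 (34 against 14) were the last members, with ratios of 2.02 and 2.02. Ldim_g12075 (52 against 22) and Ldim_g26905 (27 against 11) were the first outside, at 2.01 and 2.00, so a single count in 1 fish separates inside from outside.

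**Figure D1:**
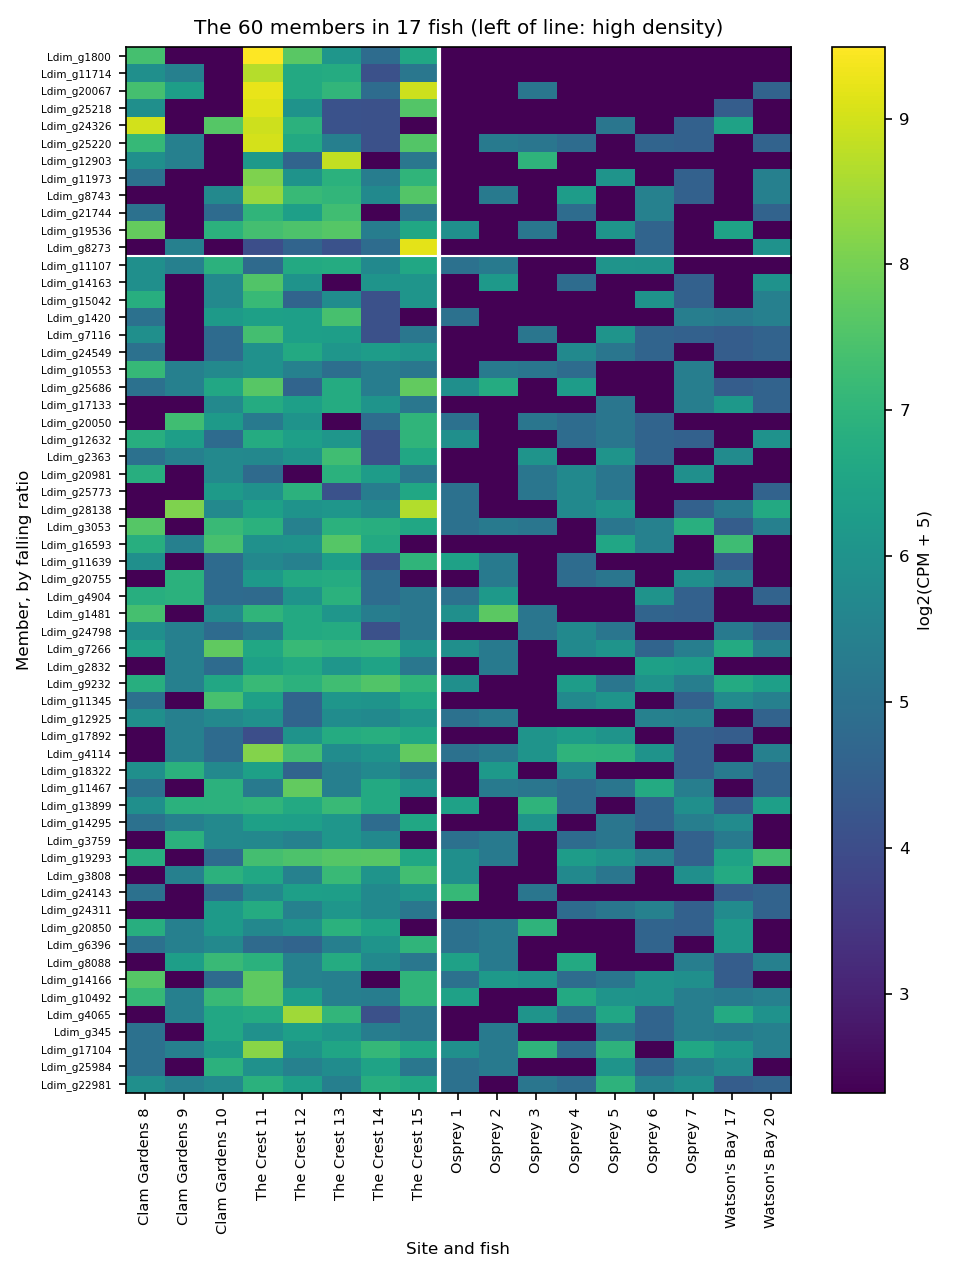
Level of each of the 60 members (rows, by falling ratio) in each of 17 fish (columns, by site) as log2(CPM + 5). Of the 12 members above the horizontal line 7 are brightest among high-density fish in The Crest 11, and most low-density fish are dark there, and the 48 below it are spread over the high-density fish at low levels.

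Ldim_g1800 had the highest ratio. It had 63 counts in The Crest 11, 10 in fish 12, 5 in fish 13, 2 in fish 14 and 3 in fish 15, with 6 in Clam Gardens 8 and 0 in Clam Gardens 9 and 10. None of the 9 low-density fish had a count. Its level was 156 ± 237 CPM in high-density fish (SD, n = 8), and against a floor of 3 counts over the pooled low-density fish (7.67 CPM) the pooled level of 202 CPM was at least 26.4-fold higher. The spread within high density was thus wider than the mean, with 57.1% of the summed high-density CPM in a single animal, The Crest 11. That fish held 70.8% of the high-density counts, on which the pooled level and its fold rest. The same fold placed the model first in the list.

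Ldim_g11714 was the other member with no low-density count. It had 36 counts in The Crest 11, then 5, 8, 1 and 1 in fish 12 to 15 of that site, and 2, 1 and 0 in Clam Gardens 8, 9 and 10. Its pooled level of 123 CPM was at least 16.0-fold above the same floor, and its high-density level was 92.8 ± 133 CPM (SD, n = 8). The Crest 11 held 66.7% of its high-density counts. Clam Gardens 10 was the sole high-density fish not above all low-density fish, and no other of the 60 members separated as many as 7 of the 8.

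Ldim_g20067 and Ldim_g25218 repeated this profile. Ldim_g20067 had 53, 5, 10, 2 and 16 counts in The Crest 11 to 15 and 6, 2 and 0 in Clam Gardens 8 to 10, and in low-density fish it had 1 count each in Osprey 3 and Watson's Bay 20. Ldim_g25218 had 49, 3, 1, 1 and 6 counts at The Crest and 2, 0 and 0 at Clam Gardens, with 1 count at low density, in Watson's Bay 17. Their high-density levels were 197 ± 223 and 110 ± 190 CPM (SD, n = 8), against 5.52 ± 11.3 and 1.84 ± 5.51 CPM at low density (n = 9). Fish 11 was the highest in both, and Clam Gardens 10 had no count of either.

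Ldim_g24326 differed in placing Clam Gardens 8 first, at 512 CPM from 19 counts, just ahead of The Crest 11 at 488 CPM from 43 counts. Clam Gardens 10 followed with 187 CPM from 8 counts, and The Crest 15 had 0. Watson's Bay 17 had 5 counts (82.7 CPM), so the densities overlapped. Ldim_g25220 returned to the first profile, with 46 counts in The Crest 11, 5, 3, 1 and 6 in the other Crest fish and 5, 1 and 0 at Clam Gardens. It had no more than 1 count in any low-density fish and 6 counts over all of them.

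A single fish made up most of the signal of several other members with steep ratios. Ldim_g8273 had 19 of its 25 high-density counts in The Crest 15, which is 84.6% of its summed high-density CPM, and 0 to 2 counts in each of the other 7 fish. Ldim_g12903 had 36 of 47 high-density counts in The Crest 13, 68.4% of the summed CPM, and its 4 low-density counts were all in Osprey 3. Ldim_g25218 had 63.3% in The Crest 11. Ldim_g8273 and Ldim_g12903 each had just 1 high-density fish above all low-density fish.

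Ldim_g19536 was the steady member among the 12. Its counts at Clam Gardens were 8, 0 and 5 and at The Crest 14, 9, 15, 3 and 3, and its level was 123 ± 76.3 CPM at high density against 27.5 ± 31.5 CPM at low density (SD, n = 8 and 9). No fish held more than 21.9% of its summed high-density CPM, and 6 of 8 high-density fish exceeded the highest low-density fish.

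Summed over the 12, the level was 4254 CPM in The Crest 11, 2028 in The Crest 15, 1404 in The Crest 13, 1401 in Clam Gardens 8 and 1154 in The Crest 12. It was 375 CPM in Clam Gardens 10, 241 in The Crest 14 and 230 in Clam Gardens 9. Low-density fish ran from 54.3 to 212 CPM, with a median of 139 CPM. All 8 high-density fish lay above all 9 low-density fish, as the choice of members favours, but the lowest of them exceeded Osprey 3 by less than the worth of 1 count in its library. The Crest 11 supplied 53.2% of the high-density counts of the 12 from 20.0% of the library total, and without it the pooled difference between densities dropped from 11.8-fold to 6.93-fold.

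Summed over the other 48, the level was more even. Clam Gardens 8, 9 and 10 had 2560, 1916 and 3302 CPM, and The Crest 11 to 15 had 4504, 3659, 3958, 2809 and 3625 CPM. Osprey fish ran from 1061 to 1654 CPM with a median of 1304, and Watson's Bay 17 and 20 had 1588 and 1220 CPM. The high-density mean was 3291 ± 830 CPM and the low-density mean 1321 ± 203 CPM (SD, n = 8 and 9). The pooled difference was 2.62-fold and stayed between 2.43-fold and 2.74-fold when 1 high-density fish at a time was removed.

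**Figure D2:**
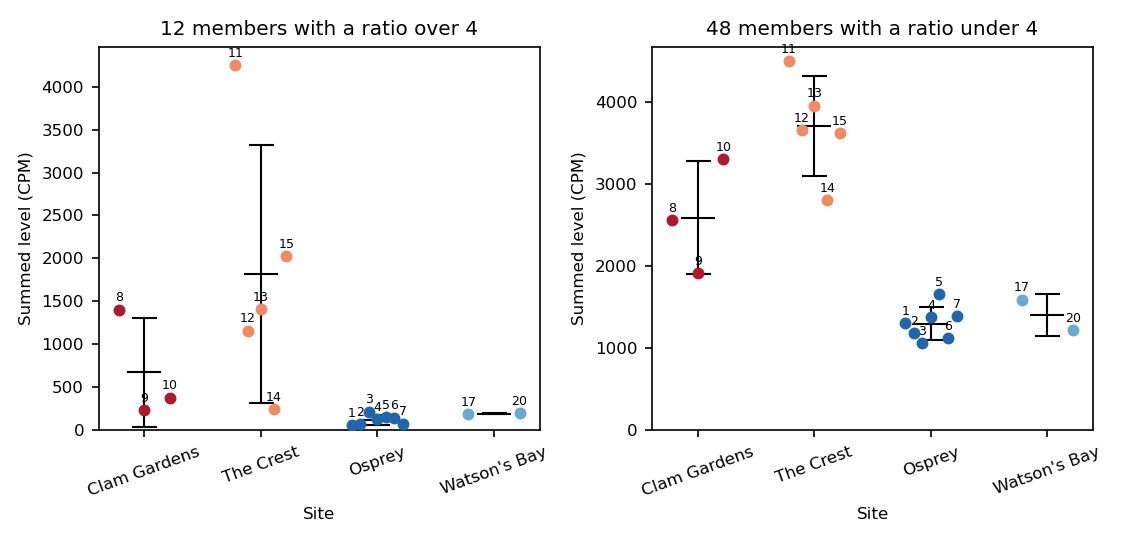
Summed level in CPM of the 12 members with a ratio over 4 (left) and the 48 with a ratio under 4 (right), by site, with each point a fish labelled by its number and bars giving the mean and SD. On the left The Crest 11 stands at 4254 CPM and The Crest 14 at 241 CPM, and on the right the high-density fish lie between 1916 and 4504 CPM.

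Among the 48 were the 3 members named for the lowest chi-square over high-density fish. Their low values were fixed by that choice, and nothing is read from them. The chi-square of the counts against library size, per degree of freedom over the 8 fish, was 0.174 for Ldim_g12925, 0.603 for Ldim_g9232 and 0.615 for Ldim_g24143, where counting error alone averages 1. Ldim_g9232 had 4, 1 and 4 counts at Clam Gardens and 12, 6, 12, 15 and 4 at The Crest, or 119 ± 42.2 CPM (SD, n = 8). It had 47.8 ± 34.1 CPM in low-density fish (n = 9), where Osprey 2 and 3 had 0 counts and Watson's Bay 17 had 6. Ldim_g12925 had 1 to 5 counts in each high-density fish and 0 to 2 in each low-density fish, at 46.9 ± 13.1 and 17.4 ± 17.5 CPM.

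Ldim_g24143 had a low chi-square per degree of freedom in high-density fish and a higher one, 3.56, in low-density fish. The low value does not show evenness, because its mean level was 16.8 CPM at Clam Gardens and 61.8 CPM at The Crest. It had 22 counts in high-density fish, at 44.9 ± 27.1 CPM, and 8 in low-density fish, at 22.5 ± 44.0 CPM (SD, n = 8 and 9). Of these 8 counts 5 were in Osprey 1, which at 136 CPM lay above every high-density fish. Osprey 3 and Watson's Bay 17 and 20 had 1 count each, and the remaining 5 low-density fish had 0.

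Taken by member, the median chi-square per degree of freedom in high-density fish was 15.1 for the 12 and 1.51 for the 48, beside 1.06 for all 1983 candidates. A value over 2 was reached by 12 of the 12, by 15 of the 48 and by 10.5% of the candidates. In low-density fish the medians were 1.23 for all 60 members and 1.05 for the candidates. The choice favours models with an unusually high value in some high-density fish, so the first comparison is partly fixed by the rule. In low-density fish the 12 had too few counts for a spread of this size to show.

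For each member, the high-density fish above the highest low-density fish were counted. A fish with no count cannot be among them. Counts in all 8 high-density fish were present for 16 of the 60 members and 673 of the 1983 candidates, so full separation was out of reach for the others. All 8 high-density fish exceeded the highest low-density fish for 0 of 60 members, as for 0 of the 1983 candidates (0%). At least 6 of 8 did so for 9 members, 5 of them among the 12, against 0.605% of candidates, and at least 4 of 8 for 26 members, against 3.23%. For 4 members, and for 1177 of the 1983 candidates, not a single high-density fish exceeded the highest low-density fish. The rule used this contrast, and nothing is read from these shares.

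Each high-density fish was checked for how many members had their highest level in it. The Crest 11 was the highest for 7 of the 12 and 10 of the 48 members, beside 7.56% of candidates. The Crest 13 and 15 were each highest for 9 of the 60 (15%), close to their shares of candidates, 14.2% and 13.9%. The Crest 14, with 82960 gene counts against 88153 in The Crest 11, was highest for 3 of the 60 and 0 of the 12, beside 13.2% of candidates. The Crest 11 weighed most in the pooled counts that chose the members, so the rule favours models highest in it, and the part of depth was not tested. The members detected with at least 1 count numbered 60 in The Crest 11 and 57 in The Crest 14, and 34 in Clam Gardens 9. Thinned to the 26092 counts of the shallowest library, the expected numbers were 51.9, 39.3 and 34, and low-density fish had 20.8 to 30.5. The rule asks for counts in at least 6 high-density fish and ranks by the pooled ratio, so it favours more detected members at high density and nothing is read from that difference.

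**Figure D3:**
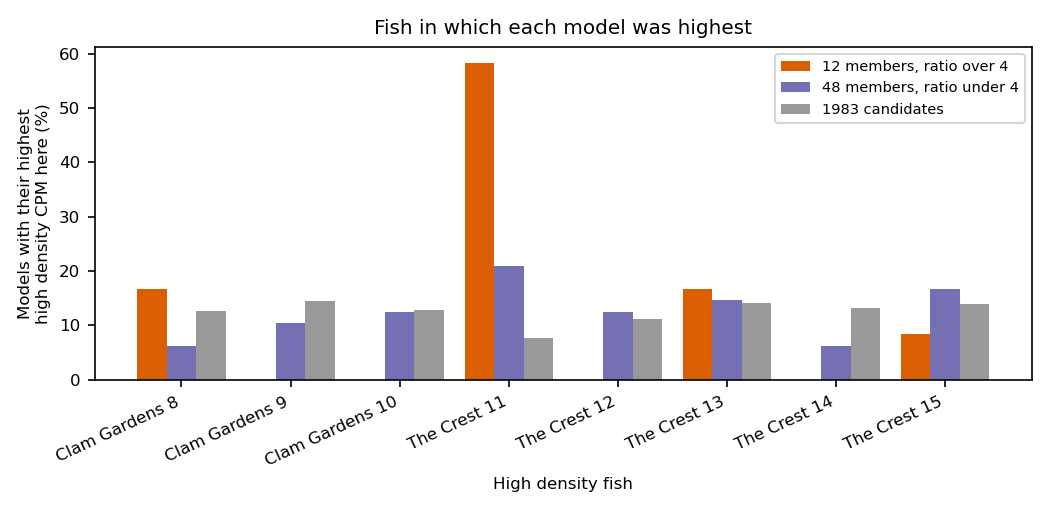
Share of models (percent) whose highest CPM among the 8 high-density fish was in the fish named on the x axis, for the 12 members with a ratio over 4, the 48 others and the 1983 candidates. The Crest 11 was highest for 58.3% of the 12, 20.8% of the 48 and 7.56% of the candidates.

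Part of the fish profile of the 12 recurred in a more abundant model outside the list. Ldim_g28127, above the 100 CPM limit, is shown because its first fish and its last 3 were those of the 12. It was chosen after its values were seen. It had 7600 CPM in The Crest 11, 3341 in Clam Gardens 8, 3318 in The Crest 15, 2661 in The Crest 12 and 1783 in The Crest 13. Clam Gardens 10, The Crest 14 and Clam Gardens 9 followed with 984, 277 and 76.7 CPM, the same last 3 fish as for the summed level of the 12. It put the same fish first and the same 3 last, but the order of the fish between them differed. In the 12, The Crest 14 and Clam Gardens 9 lay within the worth of 1 count of each other. Unlike the 12, Ldim_g28127 overlapped between densities, with 678 CPM (35 counts) in Watson's Bay 20, above The Crest 14 and Clam Gardens 9. This likeness is a description of 8 animals.

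Ldim_g12384, a more abundant model that was also mostly higher at high density, followed a different order. The densities overlapped, with 2423 CPM in The Crest 14 below 2530 CPM in Watson's Bay 17. Ldim_g12384 had 13414 CPM in Clam Gardens 9 and 12904 in The Crest 15, against 3902 in The Crest 11. Clam Gardens 9, which had the least of the 12 among high-density fish, had the most of it.

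Of the 40 models of any abundance with the highest ratio, 5 were members and 35 were not. Of these 35, 17 were above the CPM window, 9 were below it, and 9 were inside but detected in fewer than 6 high-density fish. The Crest 11 was the highest fish for 28 of the 35. The Crest 11 was highest for 7.56% of candidates, but the 40 were picked by the same pooled ratio, which favours models high in that deep library, and nothing is read from the share.

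Some members have neighbouring identifiers, although the files do not say whether identifiers follow genome order. Ldim_g25218 and Ldim_g25220 flank Ldim_g25219, a non-member with 111 counts in The Crest 11, 14 each in Clam Gardens 8 and The Crest 15, 13 in The Crest 12, 11 in The Crest 13 and 1 in The Crest 14. Ldim_g25221 and Ldim_g25222, the next numbers, had 208 and 429 counts in The Crest 11 and 11 and 9 counts over all low-density fish. All 5 consecutive models were highest in The Crest 11. Ldim_g14163 and Ldim_g14166 were another pair, with 16 and 18 counts in The Crest 11, and of the 2 models between them Ldim_g14164 had 18 there and 0 in low-density fish, while Ldim_g14165 had 1 count there and 1 in Osprey 7. Reads that near-identical copies share could be split among such neighbours, and this was not tested.

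Levels of the members were then compared pair by pair within a density, as log2(CPM + 20). In the 8 high-density fish the median Pearson r over 1770 pairs was 0.20, beside 0.03 over all pairs of candidates, and 384 pairs (21.7%) exceeded 0.5, beside 14.1%. Over the 66 pairs of the 12 the median was 0.49, and it was 0.45 over 7 fish without The Crest 11. Over the 1128 pairs of the 48 it was 0.18. In the 9 low-density fish the median over member pairs was 0.01, with 9.74% above 0.5, beside 9.44% for candidates. The fish of a pair share library depth, and many values rest on 0 to 3 counts. The choice, made with The Crest 11 included, ties members to the same high fish. The 12 also differed by site, with mean summed levels of 1816 CPM at The Crest and 669 CPM at Clam Gardens. Nothing is therefore read from these medians and shares, including those of the 12.

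The pair most alike in high-density fish was Ldim_g24549 and Ldim_g24143, with r = 0.97 over 8 fish as the highest of 1770. Ldim_g24549 had 1, 0 and 1 counts at Clam Gardens and 5, 5, 5, 6 and 2 at The Crest, and Ldim_g24143 had 1, 0, 1, 4, 4, 6, 4 and 2 in the same order. Both averaged 16.8 CPM at Clam Gardens, against 70.3 and 61.8 CPM at The Crest, so this r also carries the site difference. In low-density fish the closest pair was Ldim_g4904 and Ldim_g12925, with r = 0.92 over 9 fish, on values of 0 to 3 counts. Neither pair was drawn from the 12, and both were the extreme of many.

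Whether the lean to high density appears in fish that had no say in the choice was read by leaving out each of the 17 fish in turn. The rule was applied to the other 16 fish, and the summed level of the 60 models so chosen was taken in the fish left out. The other fish of its site still took part in the choice. A lean of that site alone would therefore also appear, and this reading does not part density from site. In left-out high-density fish it was 2856, 1878 and 3279 CPM in Clam Gardens 8, 9 and 10, and 6228, 3659, 4223, 2676 and 4394 CPM in The Crest 11 to 15. In left-out low-density fish it was 1467, 1752, 1547, 2005, 2135, 2151 and 2049 CPM in Osprey 1 to 7, and 2795 and 1995 CPM in Watson's Bay 17 and 20.

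The 2 densities overlapped in these summed levels. Of the 8 high-density fish, 6 lay above every left-out low-density fish, The Crest 14 lay below Watson's Bay 17, and Clam Gardens 9 lay below the low-density median of 2005 CPM. These levels are not directly comparable between the densities, because without a high-density fish a model needs counts in 6 of 7, and those lists held more abundant models. The pooled level of the remaining low-density fish averaged 1742 CPM for lists made without a high-density fish and 1362 CPM for lists made without a low-density fish. Relative to that level of its own list, the left-out fish had a median ratio of 2.02 at high density (range 1.24 to 3.23) and 1.47 at low density (1.05 to 2.26). On this measure 3 of 8 high-density fish lay above every left-out low-density fish, of which Watson's Bay 17 was the highest. Placed between the pooled levels of the same list in the remaining low-density fish (0%) and high-density fish (100%), the left-out high-density fish had a median of 53.6% (range 9.69% to 147%). Left-out low-density fish had a median of 18.8% (2.16% to 44.6%), and 5 of 8 high-density fish lay above all of them. By site the mean was 77.9% at The Crest (n = 5) and 30.8% at Clam Gardens (n = 3). It was 31.2% at Watson's Bay (n = 2) and 14.5% at Osprey (n = 7). On this placement Clam Gardens fish were no higher on average than Watson's Bay fish, and the higher values were mostly those of The Crest. Relative to the remaining low-density fish, the means were 1.64 at Clam Gardens and 1.85 at Watson's Bay. As a share of the level of all candidates of the same list, they were 3.08% and 2.14%. By that share 7 of 8 high-density fish lay above every left-out low-density fish. The order of these 2 sites thus depends on the measure.

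The difference in left-out fish was smaller than in the fish used for the choice. A left-out high-density fish lay below the pooled level of the other high-density fish in 7 of 8 cases, The Crest 11 being the exception, and every left-out low-density fish lay above the pooled level of the other low-density fish. For the models of each list with a ratio of at most 4, the left-out level was 3319 ± 1167 CPM in high-density fish against 1799 ± 339 CPM at low density (SD, n = 8 and 9). The pooled levels of those models in the fish that chose them averaged 4283 and 1689 CPM when a high-density fish was out, and 3465 and 1250 CPM when a low-density fish was out. Left-out levels of the models with a ratio of at most 4 are not directly comparable between the densities. The sums cover different numbers of models, and the lists differ in abundance. Models with a ratio over 4, left out of the sums, averaged 5 per list without a high-density fish (range 1 to 10). They averaged 10.3 per list without a low-density fish (range 9 to 12). The 17 lists share most of their fish, so no test was made.

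**Figure D4:**
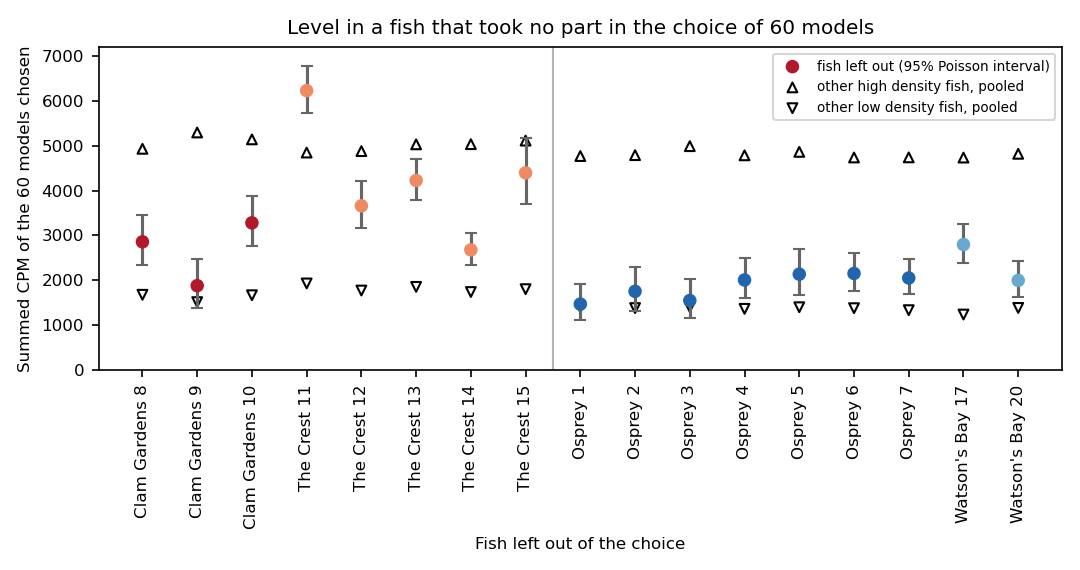
Summed CPM of the 60 models chosen without a fish, read in that fish (filled points with 95% exact Poisson intervals, coloured by site), with the pooled level of the same models in the other high-density fish (upward triangles) and other low-density fish (downward triangles). High-density fish lie between 1878 and 6228 CPM and low-density fish between 1467 and 2795 CPM.

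The list itself changed when a fish was removed. Without The Crest 11, 31 of the 60 members were chosen again, and without The Crest 12, 13 or 14 it was 39 each time. Of the 60 members, 18 had counts in exactly 6 high-density fish, with The Crest 11 always among them. Without that fish they fell below the 6 that the rule asks for, whatever their ratio. Removing a low-density fish kept 43 to 54. That removal does not touch the detection requirement, so its numbers are not directly comparable with those for high-density fish. Giving each site the same weight kept 39.

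Watson's Bay fish 19 gave an outside reading, though a faint one. It had 6 counts over the 60 members, 2 in Ldim_g11107 and 1 each in Ldim_g13899, Ldim_g19293, Ldim_g25984 and Ldim_g22981, and 0 in the 12 with steep ratios. This is 1551 CPM, with an exact Poisson 95% interval of 569 to 3376 CPM, which includes all 9 low-density fish and 2 of the 8 high-density fish. A count of 0 for the 12 allows up to 776 CPM in this library (3 counts). All 9 low-density fish and 3 of the 8 high-density fish lay under that limit, and 5 high-density fish lay above it.

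The 2 high-density sites were compared to see how far the members differ between sites with the same density label. In edgeR, over 3678 models with a mean of at least 30 CPM, 2 models (0.0544%) passed an adjusted p of 0.05 between The Crest and Clam Gardens, and 0 of the 60 members did. At an unadjusted p under 0.05 there were 10 members, all higher at The Crest, beside 6.61% of all models. The Crest fish weighed more in the pooled counts that chose the members, so this number is partly built in. It was 4 with DESeq2, beside 3.7% of all models, and 18 with no filter on low counts, beside 4.31%. Without Clam Gardens 9 it was 5 of the 58 members still tested, beside 6.54% of all models. Without The Crest 11 it was 6 of the 47 members still tested, beside 6.38% of all models. Ldim_g8743 had the smallest p of the members. It had 29, 7, 10, 4 and 6 counts at The Crest and 0, 0 and 2 at Clam Gardens, which edgeR fitted as 3.05 on the log2 scale (SE 0.93, adjusted p = 0.494). Without Clam Gardens 9, or without Clam Gardens 10, the count over all models was 0, and DESeq2 also called 0, with 136 at an unadjusted p under 0.05.

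The members leaned to The Crest as a list. The log2 difference was above 0 for 45 of 60 members, with a median of 0.76, beside 58.4% and a median of 0.12 for all models tested. Pooling by counts gives The Crest more weight in the choice than Clam Gardens, so this lean is partly built in. By site the summed level of all 60 was highest in The Crest fish, at 5527 ± 2069 CPM (SD, n = 5), and 3261 ± 976 CPM in Clam Gardens fish (n = 3). Watson's Bay fish had 1592 ± 252 CPM (n = 2) and Osprey fish 1414 ± 199 CPM (n = 7). Both high-density site means exceeded both low-density site means for 45 of the 60 members, beside 14.7% of candidates, which the rule also favours.

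**Figure D5:**
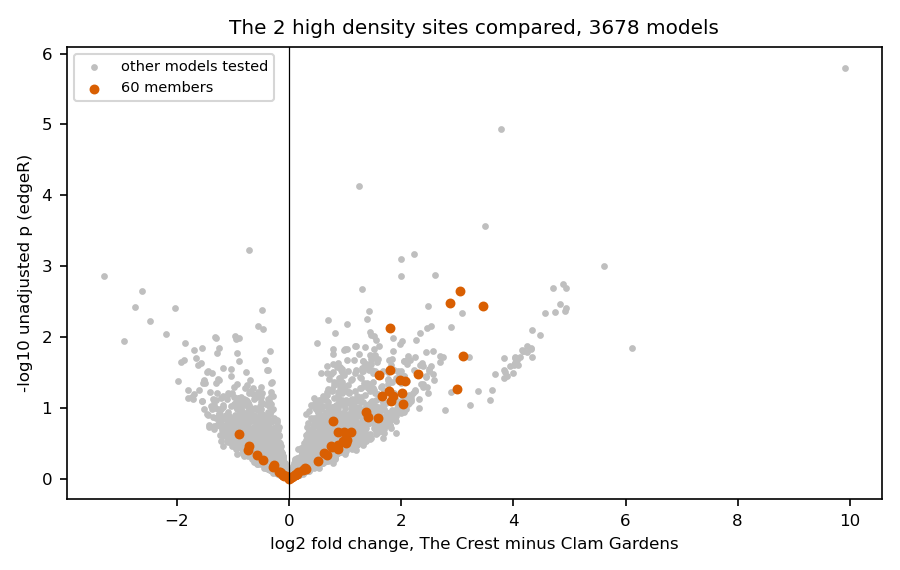
Each point is 1 of 3678 models, with the log2 fold change of The Crest over Clam Gardens on the x axis and −log10 of the unadjusted edgeR p on the y axis. The 60 members (orange) run from -0.90 to 3.46, with 45 to the right of 0 and none past the adjusted threshold.

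Between the 2 low-density sites, Osprey and Watson's Bay, 0 of 3678 models (0%) and 0 of 60 members passed in edgeR. There were 198 models (5.38%) and 3 members at an unadjusted p under 0.05, and DESeq2 also called 0, with 138 at an unadjusted p under 0.05. Ldim_g19293 had the smallest p of the members, with 2, 1, 0, 3, 2, 2 and 1 counts in Osprey 1 to 7 and 5 and 8 counts in Watson's Bay 17 and 20. Its log2 difference, Osprey minus Watson's Bay, was -1.53 (SE 0.64, edgeR adjusted p = 0.749). The median log2 difference was -0.05 over the 60 members and 0.01 over all models.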

How the data were processed

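RNA was profiled by 3' tag sequencing in a forebrain slice of 18 female fish. The authors deposited whole-number counts per gene model for each fish, with no normalization. The submitters' processing notes name cutadapt 2.8, BWA and SAMtools and give none of them a role. The counting program, strand setting and build were not given in the sources used here. Removal of PCR copies is not mentioned. The 5 summary entries, which name no gene, held the other 93.6% of records on average (n = 17) and stayed out of all totals. Counts on tilapia transcripts were not used here.

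CPM is the count over all gene model counts of a fish, times 1000000. Site contrasts came from edgeR 4.0.16 in R 4.3.3 (quasi-likelihood F test, TMM scaling, 1 term per site, 17 fish, mean CPM of at least 30, Benjamini-Hochberg over 3678 models, threshold 0.05). SE is the fold change over the square root of F. The fit was tested on simulated counts. DESeq2 1.42.0, RLE scaling, other filters, fish 19 included and each fish left out were alternatives. The biological coefficient of variation was 0.277. Each library is 1 fish per the labels.

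The members and lists were chosen with earlier results of these data known. Members were named by rule. These were the 5 highest ratios, the 5 with most high-density fish above all low-density fish and the 3 most concentrated in 1 fish. The 3 with the lowest chi-square at high density and the smallest p in each site contrast were also named. So were the last 2 inside and first 2 outside the list, and the closest pair in each density. The 2 with most counts in fish 19 completed the names. Others named were chosen after their values were seen. Marker lists could not be matched to identifiers.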

Additional observations from a re-analysis of the deposited data

Results flagged for a closer look

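The distance of an extreme fish from its nearest neighbour, as a share of the spread of its group, was examined 57 times. The nominal rate of flags is 5% of groups. Where a single fish of a group has any count this share is 1 by definition, so that rate does not hold for sparse members. A fish stood apart in 10, and most of these measures were chosen for extreme values, so nothing is read from that number.

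The Crest 11 stood apart from the other high-density fish in the summed level of the 12 members with steep ratios, at 4250 CPM against 2030 in the next. Within The Crest it stood apart for Ldim_g1800 (715 CPM against 196), Ldim_g11714 (408 against 101) and Ldim_g24326 (488 against 117). The Crest 15 stood apart for Ldim_g8273, at 584 CPM against 24.1, and The Crest 13 for Ldim_g12903, at 455 CPM against 68.1.

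At Osprey the flags rest on few counts. Osprey 3 was the only fish of its site with any count of Ldim_g20067 (30.3 CPM, 1 count) or Ldim_g12903 (121 CPM, 4 counts), and Osprey 6 the only one with Ldim_g8273 (19.9 CPM, 1 count). Osprey 1 had 136 CPM of Ldim_g24143 against 30.3 in the next fish.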

How the results depend on the processing

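Of the 60 members, 39 were chosen again with equal weight per site, 31 without The Crest 11 and 39 without each of The Crest 12, 13 and 14, and the range over single fish left out was 31 to 54. The detection requirement stayed the same when a high-density fish was left out, so part of the loss is fixed by the rule. The Crest against Clam Gardens gave 2 calls, 0 with DESeq2 (136 at unadjusted p under 0.05), 0 with filterByExpr, which kept 3 of the 60 members, 21 without a filter, and 0 to 3 with 1 fish left out. No member tested was among the calls. Osprey against Watson's Bay gave 11 calls without a filter, none a member, and 0 in the other settings, including those with 1 Watson's Bay fish, assumed to vary like the rest. For the 12 steep members the pooled fold of 11.8 ran from 6.93, without The Crest 11, to 14.2, an alternative chosen after seeing the data. Summed levels by site, correlated pairs and left-out-fish levels also shifted. The Clam Gardens sum ran from 2911 to 3819 CPM with 1 of its fish left out, and that of The Crest from 4719 to 6146 CPM. The 384 correlated pairs at high density became 322 with Spearman rho and 462 without Clam Gardens 8. Without The Crest 11 they stayed at 384, while the share of candidate pairs above 0.5 rose from 14.1% over 8 fish to 16.4% over 7. For the other settings no candidate share is given, so nothing is read from these shifts. With 120 models chosen, the left-out medians relative to the other low-density fish were 1.73 and 1.39, rather than 2.02 and 1.47. With fewer than 10 counts in most fish, depth limits every single member. No paired analysis was possible because fish numbers are not shared between sites.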

Other observations

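The consecutive identifiers Ldim_g8711 to Ldim_g8714, above the CPM window, were highest in The Crest 11, and 2 of them had opposite counts in a pair of fish. They were chosen after their values were seen. Ldim_g8713 had 199 counts in Clam Gardens 8 and 2 in The Crest 12, while Ldim_g8714 had 0 in Clam Gardens 8 and 241 in The Crest 12. Both were high in The Crest 11, with 755 and 460 counts. Ldim_g8714 was also 1 of the 2 models called between The Crest and Clam Gardens (log2 difference 9.91, SE 1.71, edgeR adjusted p = 0.00579), in which all 3 Clam Gardens fish had 0 counts, so the fitted size depends on the prior count. No explanation was tested.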
